A study of Mus musculus with 12 samples.

Results

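The 10 genes described here encode the feedback arm of the ERK pathway, namely the dual specificity phosphatases Dusp4, Dusp5 and Dusp6, the Sprouty genes Spry1, Spry2 and Spry4, the Sprouty related genes Spred1 and Spred2, and the ETS transcription factors Etv4 and Etv5. They were listed by symbol because the medium of the naive cells contains a MEK inhibitor. The rule itself uses no measured value, although the list was drawn up with earlier results of these data known. All 10 were found among the 51467 genes of the count table, and all 10 were among the 14731 genes that passed the expression filter of at least 3 CPM (read counts scaled to a common library size) in at least 3 libraries. Mouse embryonic stem cells (ESCs) were grown in serum with LIF and 2i, which is the MEK inhibitor PD0325901 together with CHIR99021, an inhibitor of the kinase GSK3. Epiblast-like cells (EpiLCs) came from the same kind of ESC culture and were collected about 56 h after LIF and 2i were taken off. LIF and both inhibitors were withdrawn together and sampled at 1 time, so the share of each withdrawal in a change cannot be told apart. Both cell types were labelled with 500 µM 4-thiouridine (4sU) for 30 min, and the RNA was divided into a captured, newly made fraction (4sU libraries) and total RNA depleted of ribosomal RNA (total libraries). There were 3 libraries in each of the 4 groups. The sample labels give no line or strain, and the study's methods list a reporter line derived from V6.5 ESCs for the differentiation.

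ERK is the last kinase of a cascade that runs from receptor tyrosine kinases, in these cells mainly FGF receptors, through Ras, Raf and MEK. Active ERK switches on genes whose products damp the same cascade. Dual specificity phosphatases remove the activating phosphates from ERK, Sprouty proteins act at the receptor and Ras, Spred proteins keep Ras from activating Raf, and Etv4 and Etv5 are transcription factors that are induced by FGF signalling. In mouse ESCs, blocking MEK holds cells in the naive state, whereas ERK signalling goes with the exit towards the epiblast.

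Library totals ran from 3097693 to 5385644 reads for 4sU and from 9300845 to 21975684 for total RNA, and reads carried no molecular identifiers, so that such depths bear on counting error only. Of the genes that define both states, 10 of 10 naive markers were called lower and 6 of 7 primed markers higher in EpiLC total RNA (5 of 7 without both ESC replicate 3 libraries, where Dnmt3a fell under the fold threshold). The summed level of 7 primitive endoderm markers in total RNA was 4.56 to 11.1 CPM in ESCs and 17.8 to 20.5 CPM in EpiLCs, and that of 8 mesendoderm and neural markers was 32.1 to 34.6 and 51.2 to 54.9 CPM. For 10 fibroblast markers the sums were 60.6 to 74.0 and 50.7 to 61.0 CPM, and most of each sum was Fbln1, at 62.00 ± 10.9 and 38.1 ± 3.28 CPM (SD, n = 3). Of the 5 fibroblast markers tested, 2 were called higher in EpiLC total RNA, together with the rising feedback genes, and 1 lower. Over all genes 16.3% were called higher and 11.2% lower. The higher ones were Dcn, at 0 in all ESC libraries and at 4.84 ± 0.441 CPM in EpiLCs, and Col1a2, at 0.158 ± 0.0504 and 4.28 ± 0.694 CPM, whereas Postn was at 0 in all ESC and Lum at 0 in all EpiLC total libraries. Of the primitive endoderm markers 2 of 4 tested were called higher and 1 lower, and of the mesendoderm and neural markers 3 of 5 were called higher. Dcn and Col1a2 reached 3 CPM in the EpiLC total libraries alone, and Dab2, T, Mixl1 and Pax6 in EpiLC libraries alone. They were tested through the group where they are high, so a call lower was hardly possible for them. The part of cells of these other types in the results below was not tested, and in bulk RNA fewer cells of a type and less RNA per cell cannot be told apart. The study's text calls the replicates biological, but neither it nor the labels say whether they were separate cultures. The p-values measure the spread between these libraries.

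ESC replicate 3 stood apart from the other ESC replicates, also in the genes studied here. In 9 of 10 genes the 4sU value of replicate 3 was below the mean of replicates 1 and 2, and the same count, 9 of 10, held in total RNA. The median difference over the 10 genes was -0.62 on the log2 scale in 4sU and -0.39 in total RNA. Over all genes the median was -0.0051 and 0.0061. Spry4 was lower by the most, by 5.65-fold in 4sU and 4.88-fold in total RNA, followed by Dusp6, with 2.77-fold in each assay. Among all tested genes, Spry4 lay at percentile 0.305 and Dusp6 at percentile 1.18 of this difference in 4sU. Egr1, an immediate early gene and a common readout of ERK activity, was at 718, 543 and 24.5 CPM in the ESC 4sU libraries. Of 12 other ERK output genes, Egr1 among them, 7 were lower and the rest higher in ESC 4sU replicate 3. Below percentile 5 of all genes in 4sU were 5 of these 12 and 2 of the 10 feedback genes. In total RNA the counts were 3 and 4. Genes of other lists were low in replicate 3 as well. The mesoderm marker T and the primed marker Lef1 were 11.1-fold and 6.18-fold lower in 4sU, and 9.89-fold and 3.11-fold lower in total RNA. T had 9, 6 and 0 reads in the ESC 4sU libraries, so its 4sU fold lies near the floor. For the feedback genes and the pathway lists, values without both ESC replicate 3 libraries are therefore given where they change a call in total RNA, in 4sU RNA or for stability, and for the feedback genes also where they turn the sign of a change in total or 4sU RNA.

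**Figure D1:**
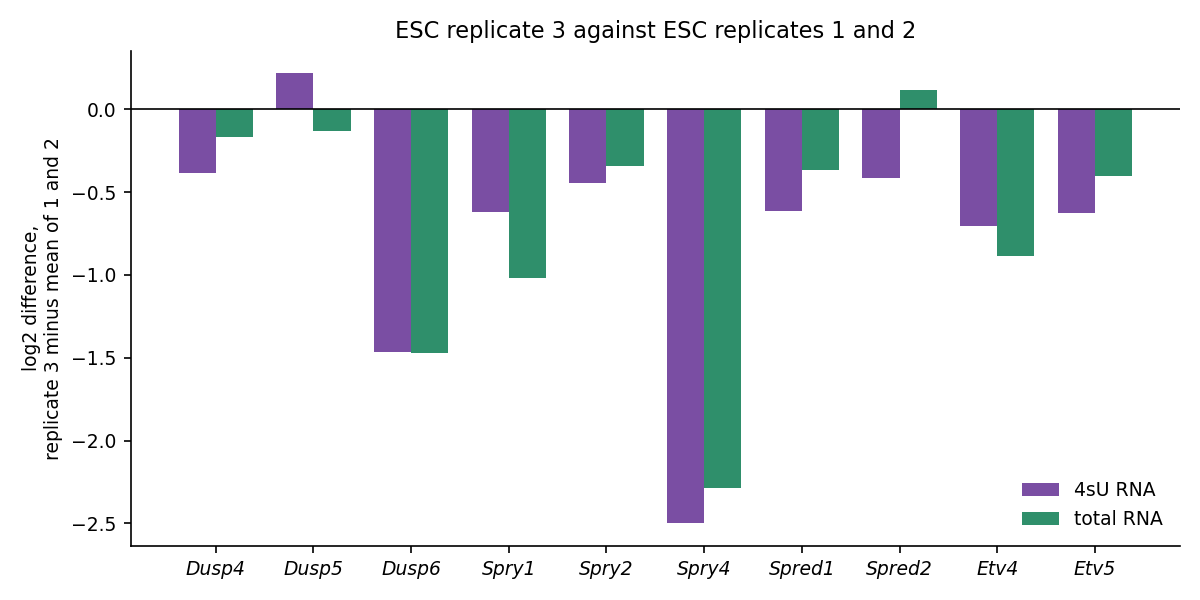
Difference between ESC replicate 3 and the mean of ESC replicates 1 and 2 for each of the 10 genes, on the log2 scale (y axis), with 1 bar for 4sU and 1 for total RNA. Bars below 0 mark a lower level in replicate 3. Spry4 and Dusp6 have the deepest bars in both assays, Dusp5 is above 0 in 4sU, and Spred2 is above 0 in total RNA.

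The first comparison asked which feedback mRNAs differed between ESCs and EpiLCs in total RNA. The 3 phosphatase genes and Spry1 were higher in EpiLCs, none of the 10 was called lower, and the remaining 6 were not called. The call was an adjusted p under 0.05 with an absolute log2 fold change over 1 in limma-voom. Over all 14731 genes, 16.3% were called higher and 11.2% lower by this rule, against which 4 of 10 and 0 of 10 stand. The counts by edgeR's quasi-likelihood test and by DESeq2 were also 4 and 0, and at an unadjusted p under 0.05 limma-voom gave 1 lower gene, Etv4. The median log2 fold change was 0.56 over the 10 genes and 0.02 over all genes. With both ESC replicate 3 libraries left out, 3 of 10 were called higher, against 17.9% of all genes, because Spry1 fell under the fold threshold. By adjusted p alone, 6 of 10 were higher, against 31.4% of all genes, which added Spred1 and Spred2. In the other direction, 1 of 10 was lower by adjusted p alone, Etv4, against 32.1% of all genes.

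The second comparison asked the same of newly made RNA. Dusp4, Dusp6 and Spry1 were called higher in EpiLC 4sU RNA, which is 3 of 10 genes against 11.9% of all genes, and 0 of 10 were called lower, against 13.5%. At an unadjusted p under 0.05, 0 of 10 were lower, and edgeR and DESeq2 each called 3 higher and 0 lower. The median log2 fold change was 0.43 over the 10 genes and -0.09 over all genes. Without both ESC replicate 3 libraries, 2 of 10 were called higher, against 12.5% of all genes, and Spry1 again dropped out. By adjusted p alone 5 of 10 were higher, against 23.7% of all genes, and the added genes were Dusp5 and Spred1.

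**Figure D2:**
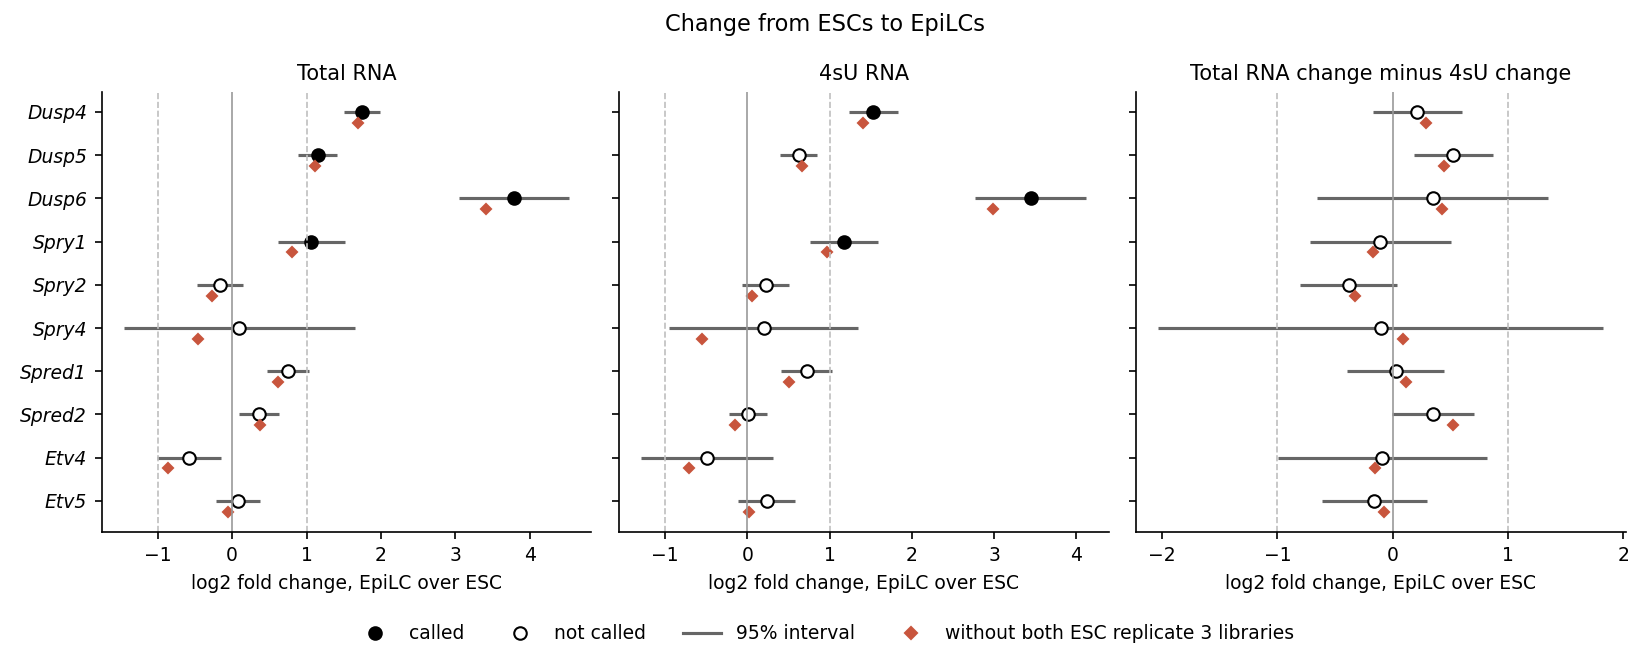
Log2 fold change of EpiLCs over ESCs (x axis) for each gene in total RNA, in 4sU RNA, and for the difference between both changes, with 95% intervals. Filled circles were called, dashed lines mark an absolute log2 fold change of 1, and diamonds give the value without both ESC replicate 3 libraries. Dusp6 lies farthest to the right in total and 4sU RNA, and Spry4 has the widest interval in each panel.

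Dusp6, which encodes a cytoplasmic phosphatase specific for ERK, had the largest fold change of the 10 genes in both assays. In ESC total RNA it was at 19.8, 21.5 and 7.41 CPM in replicates 1, 2 and 3, and in EpiLC total RNA at 228, 200.3 and 239 CPM. The 4sU libraries held 95.6, 112 and 37.3 CPM in ESCs and 957, 721 and 852 CPM in EpiLCs. Each EpiLC library was far above each ESC library of its assay, and replicate 3 was the lowest ESC library in both. The log2 fold change was 3.79 ± 0.34 (SE) in total RNA, or 13.9-fold (limma-voom adjusted p = 2.37e-07), and 3.45 ± 0.31 in 4sU RNA, or 10.9-fold (adjusted p = 7.19e-07). Leaving out both ESC replicate 3 libraries gave log2 values of 3.41 and 2.98. Dusp6 lies at chr10:99263231-99267489 on the plus strand of mm10, and its promoter window, from 250 bases before to 50 after the RefSeq start (GRCm38.p6, chr10:99262981-99263280, plus strand), is shown because the gene had the largest change of the set. The capitals mark the reverse complement of CGGAAG, a short form of the ETS core, and its first base lies at -62 from the start.
Dusp6 promoter: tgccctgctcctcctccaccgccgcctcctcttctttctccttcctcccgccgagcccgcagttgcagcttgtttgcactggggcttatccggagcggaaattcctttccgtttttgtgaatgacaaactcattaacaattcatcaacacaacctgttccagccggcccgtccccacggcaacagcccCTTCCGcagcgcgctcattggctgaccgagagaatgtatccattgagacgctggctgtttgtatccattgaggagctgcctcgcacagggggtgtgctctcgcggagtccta
CGGAAG on either strand was found in 3 of the 7 feedback genes with a RefSeq promoter entry (Dusp6, Spred1 and Spred2) and in 16.9% of 32851 promoters of the same length, so the match is a description of the window and no evidence of binding. For each motif the feedback genes were counted by gene and the background by promoter entry, so the shares are of unlike units. The longer ETS form CCGGAAGT, which contains the short one, was in 0 of 7 and in 3.89% of all promoters, the cyclic AMP element TGACGTCA in 0 of 7 and in 1.79%, and the AP-1 element TGANTCA in 0 of 7 and in 7.81%. The motifs were chosen after the expression values had been seen.

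Dusp4 and Dusp5 encode nuclear phosphatases of MAP kinases. Dusp4 total RNA was 10.9, 10.7 and 9.58 CPM in ESCs and 38.02, 32.8 and 35.5 CPM in EpiLCs. Its 4sU RNA was 18.1, 19.1 and 14.2 CPM in ESCs and 54.9, 46.01 and 50.4 CPM in EpiLCs. The groups did not overlap in either assay, and ESC replicate 3 was the lowest ESC library in both. The rise was 1.75 ± 0.11 (SE) in log2 for total RNA (adjusted p = 6.83e-09) and 1.53 ± 0.14 for 4sU RNA (adjusted p = 7.5e-07). Dusp5 total RNA was 9.32, 10.3 and 8.89 CPM in ESCs and 22.2, 20.1 and 21.8 CPM in EpiLCs, again without overlap. Its 4sU RNA was 49.5, 53.8 and 59.96 CPM in ESCs and 90.7, 85.2 and 73.4 CPM in EpiLCs. Dusp5 rose by 1.15 ± 0.12 (SE) in total RNA (adjusted p = 1.27e-06), whereas its 4sU change, 0.62 ± 0.10 (adjusted p = 0.000183), passed the p threshold and not the fold threshold. The difference between its 2 changes, 0.53 ± 0.16, did not pass after adjustment (adjusted p = 0.0744). Without both ESC replicate 3 libraries that difference was 0.44 with an adjusted p of 0.0493, under the p threshold and still under the fold threshold.

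The promoter window of Dusp5 is shown because it was the 1 window of the 7 that held a serum response element, the CArG box bound by serum response factor. The window covers chr19:53528895-53529194 on the plus strand (RefSeq, GRCm38.p6), and the capitals mark a pair of adjoining CArG boxes that begins at -82 from the start.
Dusp5 promoter: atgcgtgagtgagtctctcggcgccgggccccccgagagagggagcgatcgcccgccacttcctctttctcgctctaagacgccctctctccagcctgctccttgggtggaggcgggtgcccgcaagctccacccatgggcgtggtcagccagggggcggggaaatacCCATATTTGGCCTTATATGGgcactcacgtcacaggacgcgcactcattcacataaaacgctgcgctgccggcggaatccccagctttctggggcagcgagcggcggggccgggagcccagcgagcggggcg
A CArG box was in 1.63% of all 32851 promoters. Dusp5 itself lies at chr19:53529109-53542431 on the plus strand of mm10.

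Spry1, Spry2 and Spry4, which encode the Sprouty inhibitors, gave unlike results: Spry1 was called higher and the other two were not called in either direction. Spry1 total RNA was 18.2, 16.4 and 8.50 CPM in ESCs and 32.4, 30.2 and 28.5 CPM in EpiLCs. Its 4sU RNA was 61.9, 64.7 and 41.2 CPM in ESCs and 132, 122 and 126 CPM in EpiLCs. No ESC library overlapped an EpiLC library, but replicate 3 was the lowest ESC library in both assays. The log2 rise was 1.06 ± 0.21 (SE) in total RNA (adjusted p = 0.000458) and 1.17 ± 0.19 in 4sU RNA (adjusted p = 0.000162). Without both ESC replicate 3 libraries the values were 0.80 and 0.97, under the fold threshold, with adjusted p of 2.07e-07 and 1.43e-08.

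Spry2 was the Sprouty gene with the highest CPM and was not called in either assay. Its total RNA was 84.2, 81.2 and 65.2 CPM in ESCs and 72.7, 62.8 and 71.9 CPM in EpiLCs, and the groups overlapped. The log2 change was -0.16 ± 0.14 (SE) in total RNA, with a 95% interval of -0.47 to 0.15 (adjusted p = 0.356), and 0.22 ± 0.13 in 4sU RNA, with an interval of -0.06 to 0.51 (adjusted p = 0.176). Both intervals leave room for a small change and not for a log2 change of 1. Without both ESC replicate 3 libraries the change was -0.27 in total RNA (adjusted p = 0.0179), past the p threshold and not the fold threshold. In 4sU RNA it was then 0.05 (adjusted p = 0.616).

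Spry4 gave the least certain values of the 10 genes. Its total RNA was 13.6, 14.8 and 2.87 CPM in ESCs and 13.5, 7.05 and 12.3 CPM in EpiLCs. Its 4sU RNA was 98.2, 107 and 17.99 CPM in ESCs and 89.5, 55.4 and 74.6 CPM in EpiLCs. ESC replicate 3 was below every EpiLC library in both assays, whereas ESC replicates 1 and 2 were above every EpiLC library. The log2 change was 0.10 ± 0.73 (SE) in total RNA, with an interval of -1.46 to 1.65 (adjusted p = 0.913), and 0.20 ± 0.54 in 4sU RNA, with an interval of -0.95 to 1.35 (adjusted p = 0.777). The sign turned without both ESC replicate 3 libraries, to -0.46 in total RNA (adjusted p = 0.0619) and -0.55 in 4sU RNA (adjusted p = 0.0049). Neither direction can therefore be given for Spry4 from these libraries.

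Spred1 and Spred2 encode membrane proteins that restrain Ras, and Spred1 does so by bringing the Ras inactivator neurofibromin to the membrane. Spred1 total RNA was 128, 134 and 101 CPM in ESCs and 207, 199 and 204 CPM in EpiLCs, and the groups did not overlap. Its log2 change was 0.75 ± 0.13 (SE) in total RNA (adjusted p = 0.000162) and 0.72 ± 0.14 in 4sU RNA (adjusted p = 0.000784), both under the fold threshold. Spred2 total RNA was 20.2, 20.4 and 21.9 CPM in ESCs and 28.4, 26.5 and 25.2 CPM in EpiLCs, a log2 change of 0.36 ± 0.13 (adjusted p = 0.0225). In 4sU RNA the Spred2 change was 0.01 ± 0.11, with an interval of -0.22 to 0.24, and -0.15 without both ESC replicate 3 libraries. The difference between both Spred2 changes was 0.35 ± 0.17 (adjusted p = 0.227), and without both ESC replicate 3 libraries it was 0.53 (adjusted p = 0.00554), which passes the p threshold and not the fold threshold.

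Neither of the transcription factor genes Etv4 and Etv5 was called in total or 4sU RNA. Etv4 total RNA was 91.4, 88.99 and 48.8 CPM in ESCs and 42.3, 50.5 and 57.7 CPM in EpiLCs. Its 4sU RNA was 23.6, 27.3 and 15.5 CPM in ESCs and 16.1, 15.3 and 16.1 CPM in EpiLCs. ESC replicates 1 and 2 were above all EpiLC libraries in both assays, and ESC replicate 3 lay within the EpiLC range. The log2 change in total RNA was -0.58 ± 0.20 (SE, adjusted p = 0.0198), and it was -0.86 (adjusted p = 3.65e-08) without both ESC replicate 3 libraries, under the fold threshold both times. The 4sU change was -0.49 ± 0.37 (adjusted p = 0.287) and -0.71 (adjusted p = 0.00297) without those libraries. Etv5 total RNA was 137, 127 and 99.9 CPM in ESCs and 129, 119 and 136 CPM in EpiLCs, with overlap. Its change was 0.08 ± 0.14 in total RNA, with an interval of -0.22 to 0.37 and a value of -0.06 without both ESC replicate 3 libraries, and 0.24 ± 0.16 in 4sU RNA, with an interval of -0.11 to 0.58.

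**Figure D3:**
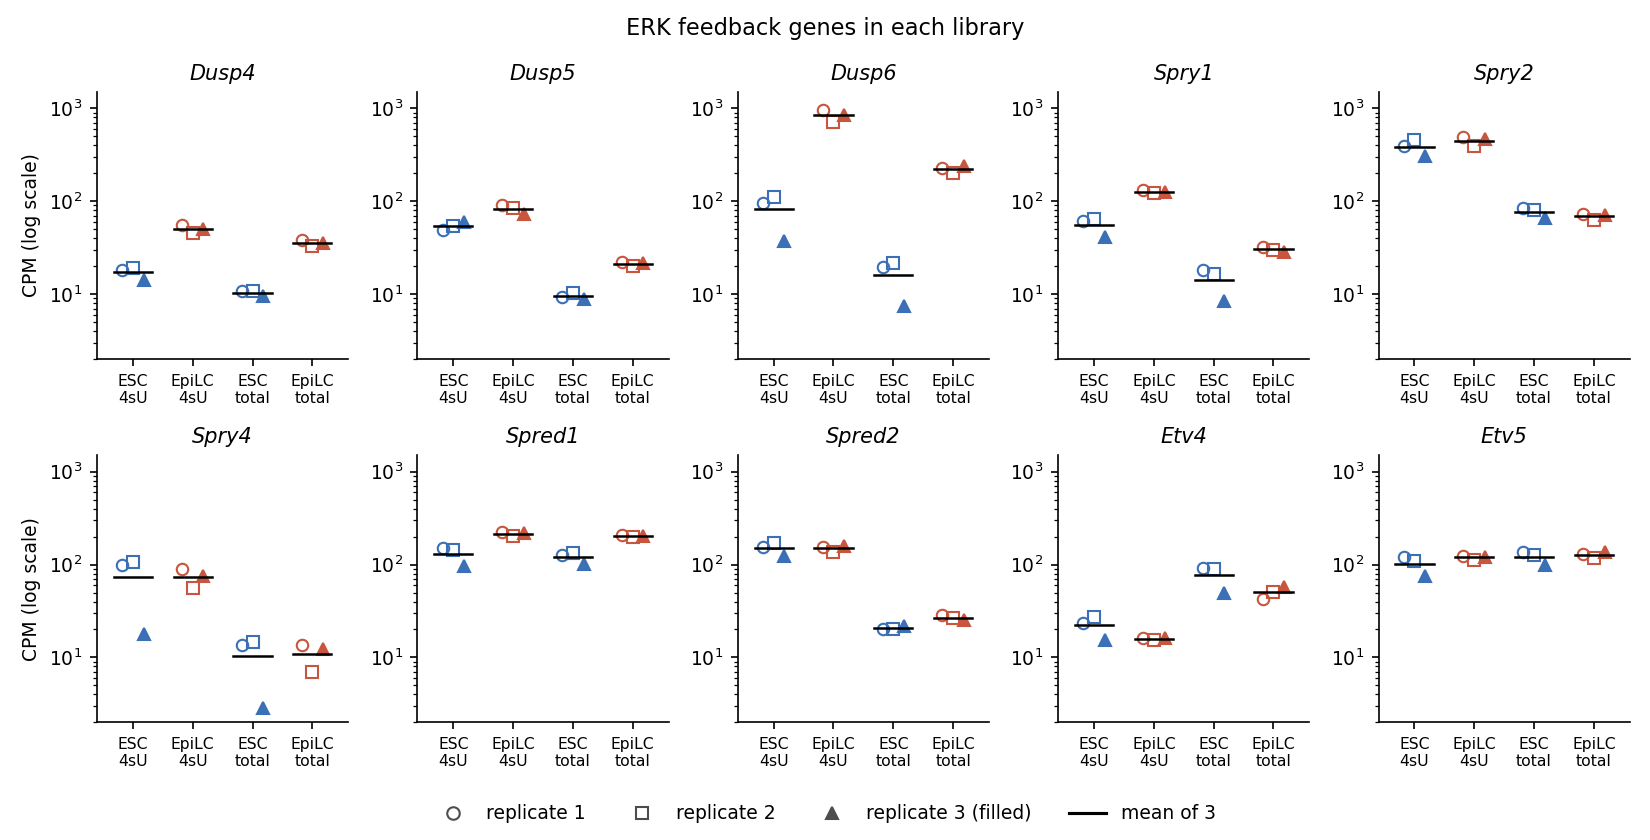
CPM of each gene in the 12 libraries (y axis, log scale), with ESC libraries in blue and EpiLC libraries in red, the replicate given by the marker and a line at the mean of 3. Dusp6 shows the widest gap between the cell types, and the filled ESC triangles of Spry4, at 17.99 CPM in 4sU and 2.87 CPM in total RNA, lie below all other Spry4 points of their assay.

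The third comparison asked whether the mRNA change of a gene differed from its nascent change, which the study's model reads as a change in mRNA stability. None of the 10 genes was called in either direction by limma-voom. Over all genes 1.24% were called higher and 0.305% lower, so a count of 0 of 10 is near the background. The 10 differences ran from -0.38 ± 0.20 (SE) for Spry2 to 0.53 ± 0.16 for Dusp5, with a median of -0.03 against 0.11 over all genes. The interval for Dusp6 was -0.65 to 1.34 and that for Spry4 was -2.03 to 1.83. In this fit, which did not pair the assays, differences near a log2 value of 1 were thus not detectable for these genes. Within a replicate number the ratios spread less. Log2 of total over 4sU CPM for Dusp6 was -2.27, -2.38 and -2.33 in ESCs and -2.07, -1.85 and -1.83 in EpiLCs, without overlap. For Spry4 it was -2.78 ± 0.12 (SD, n = 3) in ESCs and -2.77 ± 0.19 in EpiLCs. At an unadjusted p under 0.05, 1 of 10 was higher (Dusp5) and 0 of 10 were lower, and edgeR and DESeq2 each called 0 of 10.

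Relative stability, taken as log2 of total over 4sU CPM within a replicate number, was low for most of the feedback mRNAs. In ESCs 6 of 10 genes lay under the 25th percentile of all 14731 genes, and in EpiLCs 6 of 10 did. The median percentile of the 10 genes was 15.3 in ESCs and 14.1 in EpiLCs, and among protein-coding genes alone it was 4.29 and 3.67. Spred2 in ESCs was at -2.83 ± 0.31 (SD, n = 3), at percentile 11.3, and Spry4 in EpiLCs at -2.77 ± 0.19, at percentile 7.93. Dusp6, the gene with the largest rise, was at -2.33 ± 0.06 in ESCs and -1.92 ± 0.13 in EpiLCs. Dusp4 and Spred1 were nearer to the middle, with percentiles of 32.4 and 46.5 in ESCs. Etv4 was at the other end, at 1.76 ± 0.16 in ESCs (percentile 91.5) and 1.64 ± 0.23 in EpiLCs (percentile 89.9), while Etv5 was at 0.27 ± 0.13 and 0.10 ± 0.08. The ratio rests on capture of labelled RNA and on scaling within each library, so it orders genes and gives no half-life.

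**Figure D4:**
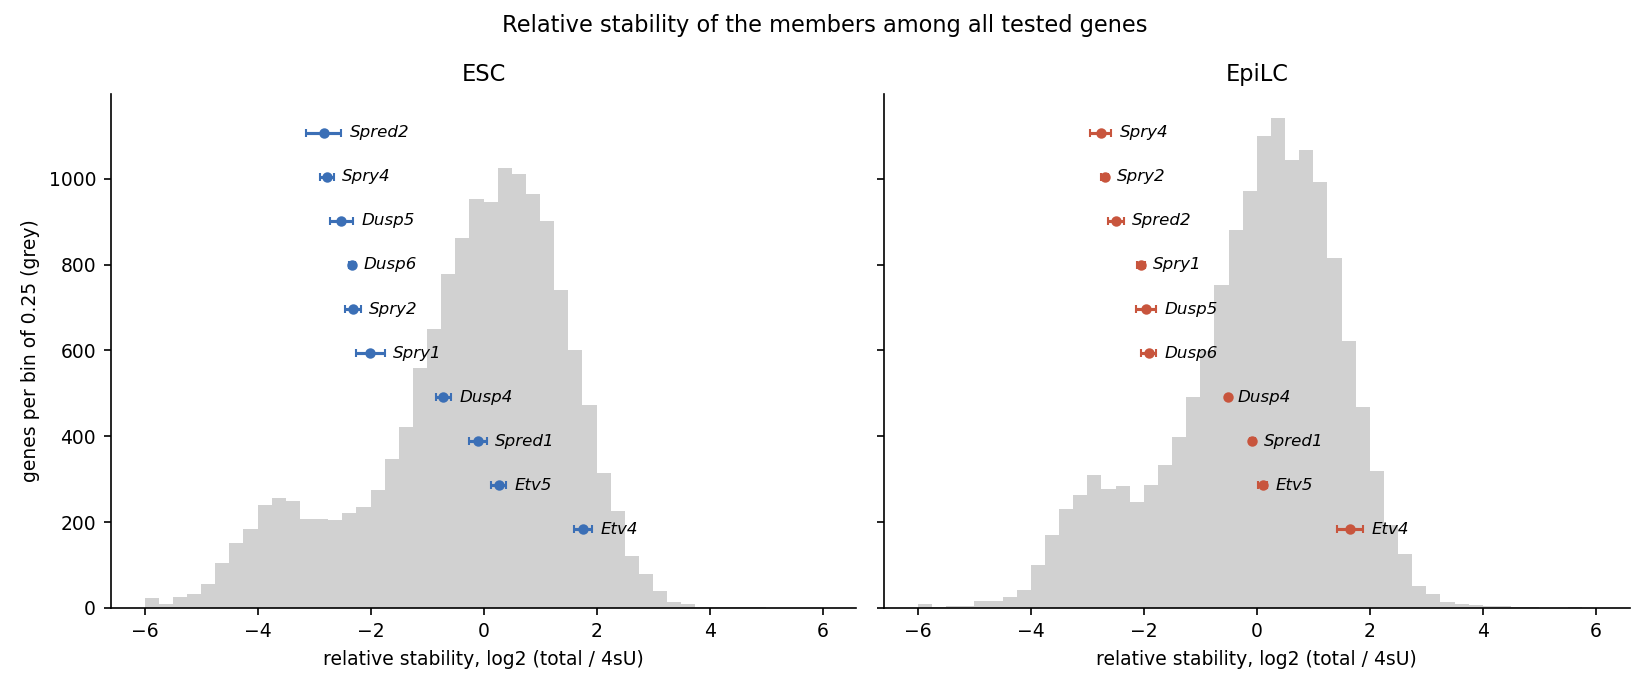
Relative stability (x axis, log2 of total over 4sU) in ESCs and EpiLCs, with the number of genes per bin in grey (y axis) and the 10 feedback genes as points with SD over 3 replicates, placed at arbitrary heights. Spred2, Spry4, Spry2, Spry1, Dusp5 and Dusp6 lie to the left of the main mass of genes in both cell types, and Etv4 lies to the right.

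Sequence elements of the 3′ UTRs were examined for what the genes of low relative stability share. The AU-rich pentamer ATTTA was found in 9 of the 10 genes. The median count over 12229 protein-coding genes was 1, so having a pentamer is common among all genes. Its density was above the median of those genes in 6 of 10. The nonamer ATTTATTTA was in 0 of 10 and in 6.08% of all genes. Etv4, with the highest relative stability of the set, had no pentamer in a 3′ UTR of 624 bases, whereas Spred1 had 12 in 4330 bases and Spred2, at the low end of stability, had 1 in 1130 bases. The Spred2 value depends on the transcript: its longest 3′ UTR had 4 in 2579 bases, or 1.55 per kilobase. The median over the longest 3′ UTRs was 1.33. Dusp5 and Dusp6, also of low relative stability, had 0.90 and 0.84 per kilobase, against a median of 1.29. Pentamer density therefore did not follow the order of stability within the set. Spry1 and Spry2 shared a run of 17 bases around a pentamer near the end of their 3′ UTRs, shown in capitals in 30-base windows at chr3:37644405-37644434 (plus strand) and chr14:105892095-105892124 (minus strand) of GRCm38, from GENCODE M21 transcripts.
Spry1 3′ UTR: ttttatTGTAAAGAATATTTATTatgcgaa
Spry2 3′ UTR: gtttagTGTAAAGAATATTTATTtgaagtt
The run begins at base 860 of 1047 in Spry1 and at base 685 of 856 in Spry2. It was the longest run that the whole 3′ UTRs of both genes shared, and it was sought after the stability values had been seen. No other pair of genes was searched, so the run has no background.

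The ESC-enriched miR-290 family and the miR-302 family share the seed AAGUGCU, in capitals in the RefSeq sequence of a member. A site for it, AGCACTT, was in the 3′ UTR of 1 of the 10 genes, Spred1, and in 16.5% of all genes. The Spred1 site is shown in capitals in its window at chr2:117180870-117180899 on the plus strand of GRCm38.
mmu-miR-294-3p: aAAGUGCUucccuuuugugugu
Spred1 3′ UTR: ggaagaattgaAGCACTTtttccttacaca
Spred1 had 1 such site in 4330 bases, and its difference between mRNA and nascent change was 0.03 ± 0.20 (SE, interval -0.39 to 0.44).

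Levels were compared between genes per length, as RPKM (CPM per kilobase of the gene's exons). In ESC total RNA Spry2 was first at 36.9 ± 4.89 RPKM (SD, n = 3), followed by Etv4 at 31.8 ± 9.96 and Etv5 at 30.2 ± 4.82, and the ranges of these neighbours overlapped. Dusp6 was at 5.81 ± 2.75 RPKM, below those genes and Spred1, and overlapped Spry1 at 4.94 ± 1.78. In EpiLC total RNA Dusp6 was first at 79.5 ± 7.15 RPKM, and its range did not overlap that of Spry2, at 33.2 ± 2.65. Spry4 was last in total RNA of both cell types, at 2.27 ± 1.43 and 2.38 ± 0.744 RPKM. In 4sU RNA Spry2 was first in ESCs at 184.7 ± 34.6 RPKM and Dusp6 was first in EpiLCs at 301.5 ± 42.3 RPKM.

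The summed RPKM of the 10 genes in total RNA was 142.1 ± 28.2 in ESCs and 235.7 ± 14.6 in EpiLCs. Dusp6 made up 3.92 ± 1.32% of the sum in ESCs and 33.7 ± 0.976% in EpiLCs. For the 9 genes other than Dusp6 the sums were 136.2 ± 25.5 and 156.2 ± 7.41 RPKM, and the single libraries overlapped. In 4sU RNA the sum of all 10 was 365.1 ± 79.7 RPKM in ESCs and 730.2 ± 81.3 RPKM in EpiLCs, and the Dusp6 share was 7.65 ± 2.45% and 41.2 ± 1.23%. Most of the difference between the summed levels was thus a difference in Dusp6.

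Across the 12 libraries, the gene nearest to each feedback gene in log2 CPM was found by Pearson's r over 10178 genes. Dusp6 was nearest to Cep126 (r = 0.994), Dusp4 to Satb1 (r = 0.997), Spry2 to Zfp281 (r = 0.998) and Spred2 to Fam222b (r = 0.999). Among the feedback genes themselves, the r of Dusp4 with Dusp6 was 0.977 and that of Spry2 with Spred2 was 0.984. The 12 libraries share 2 cell types and 2 assays, so high values are common, and the nearest value for Etv5, to Atad2, was 0.925.

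The same comparisons were made for 3 lists of other genes of the pathway. Of 19 tested negative feedback relatives, 6 were called higher in EpiLC total RNA and 2 lower, with a median log2 fold change of 0.81, where all genes gave 16.3% and 11.2%. With both ESC replicate 3 libraries left out, 9 were higher, against 17.9% of all genes, because Dusp7, Dusp16 and Cbl passed the fold threshold, and 2 were lower. Dusp2, called higher in both assays, reached 3 CPM in the EpiLC 4sU libraries alone, so a call lower was hardly possible for it. Dusp8, a phosphatase of stress activated MAP kinases, rose from 1.09 ± 0.614 to 8.60 ± 0.996 CPM (SD, n = 3), a log2 change of 3.22 ± 0.33 (SE), and the third Spred gene, Spred3, rose by 2.46 ± 0.14. Lrig1, which restrains receptors of the EGF receptor family, fell, with a log2 change of -1.53 ± 0.11, and so did Dusp14, with -1.29 ± 0.25. In 4sU RNA 6 were called higher (5 without both ESC replicate 3 libraries, with Dusp10 lost) and 2 lower, against 11.9% and 13.5% of all genes. For stability limma-voom, edgeR and DESeq2 each called 0 of 19 (1 at an unadjusted p under 0.05 in limma-voom). That 0 is near the background of 1.24% higher and 0.305% lower over all genes in limma-voom.

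Of 12 further ERK output genes, 5 were higher and 2 lower in total RNA, with a median of 0.84, against the same 16.3% and 11.2%. Fosl1, called higher in both assays, reached 3 CPM in the EpiLC 4sU libraries alone. It was tested through the group where it is high, so a call lower was hardly possible for it. Myc, a growth regulator that ERK helps to induce, was at 2.68, 3.24 and 1.28 CPM in ESC and 26.1, 21.8 and 27.7 CPM in EpiLC total RNA, without overlap, a log2 change of 3.33 ± 0.35 (SE). Phlda1 rose by 2.80 ± 0.43 in total RNA. Epha4, an ephrin receptor, fell, with a log2 change of -3.32 ± 0.45. Egr1 was called in 4sU RNA, at 2.56 ± 0.82 (adjusted p = 0.017), and not in total RNA, at 2.47 ± 1.45 (adjusted p = 0.151), and both values rest in part on the low ESC replicate 3. With those 2 libraries left out, Egr1 was at 1.06 in 4sU RNA and 1.74 in total RNA, and both were then called. In 4sU RNA 6 of 12 were higher and 2 lower, against 11.9% and 13.5% of all genes, and the lower share is near its background. Srf, which encodes the factor that binds the CArG box, was the 1 gene called for stability, with 56.5 ± 2.43 and 133 ± 3.75 CPM in total RNA and 150.1 ± 25.2 and 136 ± 19.4 CPM in 4sU RNA. Its stability difference was 1.36 ± 0.17 (SE, adjusted p = 0.00127). Of all genes, 1.24% were called higher for stability. With both ESC replicate 3 libraries left out, Ier3 was called lower for stability, at -1.24 in place of -0.99 ± 0.27, where 0.692% of all genes were called lower.

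Of 27 tested genes from the receptors to ERK, 6 were higher, against 16.3% of all genes, and 3 lower in total RNA, with a median of 0.17. The lower share is near the 11.2% of all genes. Without both ESC replicate 3 libraries 2 were lower, against 10.3% of all genes, because Ksr1 fell under the fold threshold. Fgfr3, called higher in both assays, reached 3 CPM in EpiLC libraries alone, so a call lower was hardly possible for it. Fgfr2, an FGF receptor, rose by 2.84 ± 0.25 (SE). Fgf4, the FGF ligand that ESCs make themselves, was at 449.9, 461 and 456 CPM in ESC and 111, 130.3 and 128 CPM in EpiLC total RNA, a log2 change of -1.89 ± 0.10. The adaptor gene Frs3 fell too, with -1.72 ± 0.15. In 4sU RNA 5 were higher, against 11.9% of all genes (7 without both ESC replicate 3 libraries, with Sos2 and Rps6ka3 gained, against 12.5%). In the same RNA 3 were lower, near the 13.5% of all genes, the lowest being Ksr1, a scaffold of the kinase cascade, with -1.80 ± 0.22. The 3 tools each called 0 of 27 for stability, with 4 higher and 3 lower at an unadjusted p under 0.05 in limma-voom. Over all genes limma-voom called 1.24% higher and 0.305% lower, so the count of 0 is near the background. Spry3 and Fgfr4, which belong to these lists, were not tested.

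**Figure D5:**
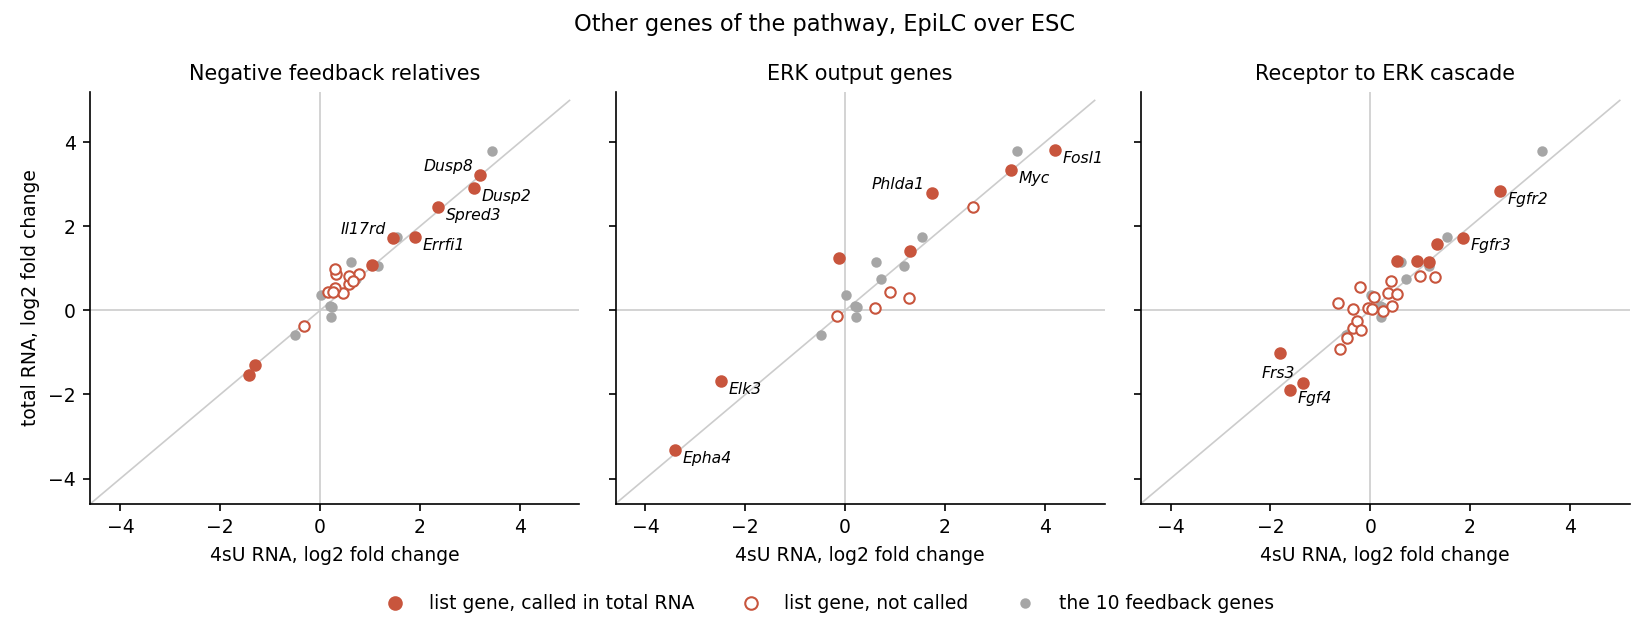
Log2 fold change of EpiLCs over ESCs in 4sU RNA (x axis) and total RNA (y axis) for the genes of the 3 lists in red, filled where called in total RNA, with the 10 feedback genes in grey and a line where both changes are equal. Called genes lie on both sides of 0 in each list, and Srf, with a total RNA change of 1.24 and a 4sU change of -0.12, lies above the line.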

How the data were processed

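Raw read counts per gene were deposited by the authors in 1 table of 12 libraries. Per the study's methods and the submitters' processing notes, single-end stranded reads were trimmed with cutadapt 1.14, aligned uniquely to mm10 with STAR 2.5.3a and counted by strand over the exons of GENCODE M14 genes with featureCounts 1.5.3, without ribosomal RNA genes. Unique alignment can lower counts of genes with near-identical copies. Intron reads were not counted. The 92 spike-in rows were at 0, so no absolute scale was available and all values are relative to the library. The 4sU libraries are the shallower ones, but the counting error of a gene follows its own reads. In EpiLCs Dusp6 had 2858 to 4040 reads in the 4sU and 2032 to 2394 in the total libraries. Etv4 had 54 to 72 and 377 to 578, so neither assay had the larger counting error for every gene.

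From these counts, the genes passing the expression filter given above entered 1 limma-voom fit of the 12 libraries, with terms for assay, cell type and their interaction as in the study's methods. R 4.3.3 was used with limma 3.58.1, and TMM scaling was taken from edgeR 4.0.16. The difference between the mRNA and the nascent change was the interaction term. A call needed a Benjamini-Hochberg adjusted p under 0.05 over all tested genes and an absolute log2 fold change over 1. The fit was tested on simulated data. Every adjusted p in the text is from limma-voom, two-sided, unless another tool is named. Counts at an unadjusted p have no share over all genes beside them.

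The 10 genes, the pathway lists, the markers and the tests were chosen with earlier results of these data known, and the promoter, pentamer run and microRNA comparisons after the values had been seen. From each pathway list the text names up to 2 called genes per direction with the largest change, provided that they averaged 10 CPM or more over the 12 libraries, both assays together, and that the libraries of the cell types did not overlap. Dusp8 and Phlda1 passed that limit through the EpiLC 4sU libraries and are under it in total RNA. A gene that this rule names is not reported here. Symbols and 3′ UTRs were taken from GENCODE M21, where 99.6% of the table's IDs were found. Alternatives were DESeq2 1.42.0 and edgeR's quasi-likelihood test in place of limma-voom, other scalings and filters, sample quality weights, the replicate number as a block and each library left out. By the protocol each labelled RNA sample was split into both assays. Deviations from the group means of same-numbered 4sU and total libraries had correlations of 0.16, 0.30 and 0.41 in ESCs and of 0.075, 0.029 and 0.023 in EpiLCs. The highest with another number was 0.068, 0.29 and -0.27 in ESCs, so ESC replicate 2 was hardly nearer to its own number. In EpiLCs the highest was -0.0090, -0.011 and 0.049, and such low values cannot show that the assays were unpaired. Same-numbered libraries of different cell types had correlations of -0.078 to -0.0090. The stability comparison was also fitted with the culture, taken as cell type and replicate number, as a block.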

Additional observations from a re-analysis of the deposited data

How the results depend on the processing

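The counts of called feedback genes kept to 4 and 3 higher and 0 lower under each other scaling, filter and tool, apart from the settings named here (3 in total RNA with quality weights, 3 and 2 without both ESC replicate 3 libraries), and 0 of 10 were called for stability in each. By adjusted p alone 1 gene was lower in total RNA and 5 were higher in 4sU RNA, and the pathway lists gave 43 called genes in total RNA, 40 in 4sU RNA and 4 for stability, in place of 24, 24 and 1. The stability count of the lists was 2 with median-of-ratios scaling, TMM within each assay, DESeq2, sample quality weights and without both ESC replicate 3 libraries, and 1 to 2 with single libraries left out. The median stability percentile was 4.29 in ESCs and 3.67 in EpiLCs among protein-coding genes and 21.01 and 15.4 with no expression filter, where other genes form the reference. With the nonamer in place of the pentamer, 0 genes were above the median. The nonamer is in 6.08% of all genes, so that 0 is near the background and is no check of the pentamer density.

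With the replicate number as an additive term (replicate block), 4 and 3 genes were again called higher and 0 lower, and the culture as block gave 0 stability calls. The Spry4 mRNA change was -0.042 with the replicate block, and its stability difference 0.081 with the block by culture. No other direction of a feedback gene turned under a block.

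Signs turned only for values that were not called, and the cause was not tested. The Spry4 mRNA change was -0.0082 by edgeR, -0.47 with quality weights and -0.46 without both ESC replicate 3 libraries, and its nascent change was -0.049, -0.25 and -0.55. Its stability difference was 0.041 by edgeR and 0.091 without those libraries. The Spred1 stability difference was -0.060 with median-of-ratios scaling, -0.030 with TMM within each assay, -0.089 with no expression filter and -0.048 by DESeq2. The Spred2 nascent change was -0.093 with quality weights and -0.15 without both ESC replicate 3 libraries. The Etv5 mRNA change was -0.0070 with no filter, -0.046 with quality weights and -0.060 without those libraries.

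With each library left out in turn, the mRNA change ran from -0.45 to 0.49 for Spry4 and from -0.053 to 0.16 for Etv5, and the nascent change from -0.54 to 0.62 for Spry4 and from -0.14 to 0.090 for Spred2. Stability differences ran from -0.017 to 0.79 for Dusp6, -0.36 to 0.079 for Spry1, -0.64 to 0.62 for Spry4, -0.088 to 0.23 for Spred1, -0.36 to 0.11 for Etv4 and -0.28 to 0.041 for Etv5. Leaving out ESC total replicate 3 or ESC 4sU replicate 3 took Spry1 to 0.81 in total RNA and 0.97 in 4sU RNA, under the fold threshold, and so did quality weights in total RNA, at 0.84.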
